A study of Mus musculus with 6 samples.

Results

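miR-22 is a microRNA (miRNA) made from a single hairpin, whose processing can release a 3p and a 5p product. Both products, mmu-miR-22-3p and mmu-miR-22-5p, were found by name in every deposited table, so that the pair made up 2 of the 474 listed miRNAs. The tables came from extracellular vesicles (EVs), small particles with a membrane that cells shed, which were isolated from primary hepatocytes of mice. Mice that lack ApoE clear plasma lipoproteins poorly and develop atherosclerosis. All donors carried the ApoE knockout (ApoE KO), and they had been fed either chow (Chow-EV, 3 libraries) or the diet that the labels name HFHC (HFHC-EV, 3 libraries). The libraries are labelled as biological replicates 1 to 3 of each diet, and the labels do not say how many mice a library stands for, their age or the length of feeding. Values are in RPM, reads scaled by the authors to a common total per library, and each library held 27673 to 65775 reads of listed miRNAs. These reads made up 0.1375% to 0.2081% of the total that the RPM values imply in Chow-EV and 0.2202% to 0.3441% in HFHC-EV. What the rest of that total holds is not stated. With bulk vesicle RNA, fewer vesicles from a cell type and less RNA per vesicle cannot be told apart.

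A miRNA guides the Argonaute protein to messenger RNAs, mainly through its seed, the bases from position 2 to 8, and lowers their translation and stability. After the hairpin is cut, usually 1 strand is kept and the other is degraded. miR-22-3p is conserved among vertebrates and abundant in heart, skeletal muscle and liver. Targets described for it in mouse include Ppara, a nuclear receptor that drives fatty acid oxidation, Sirt1, a deacetylase that senses energy state, and Hdac4, a histone deacetylase, and it has been studied in steatosis for that reason.

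On GRCm38.p6, the genome build that the submitters' processing notes name, the hairpin gene Mir22 lies at chr11:75463716-75463810 on the plus strand. In the GENCODE M21 annotation it falls inside exon 2 of the non-coding host transcript Mir22hg, and also in exon 2 of a non-coding transcript of the protein-coding gene Tlcd2. No other hairpin of the RefSeq table lies close to it: the nearest, Mir3971, is 87.6 kb downstream, and Mir132 and Mir212, a pair expressed together in neurons, lie 290.0 and 290.2 kb upstream. From these neighbours the tables list miR-132-5p alone, at 0.050 RPM in Chow-EV replicate 2 and at 0 in the other libraries. The hairpin is shown from RefSeq (GRCm38.p6) because the reads divide so unevenly between its arms; capitals mark the mature 5p product, which comes first, and the mature 3p product.
mir-22 hairpin: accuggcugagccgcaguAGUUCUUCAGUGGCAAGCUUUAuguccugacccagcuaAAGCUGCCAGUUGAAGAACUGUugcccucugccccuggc
The mature products, at chr11:75463772-75463793 for 3p and chr11:75463734-75463755 for 5p, follow with the seed in capitals.
miR-22-3p: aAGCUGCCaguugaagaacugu
miR-22-5p: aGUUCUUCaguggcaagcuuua
The seed of miR-22-3p was shared with 0 other names among the 1679 mature mouse miRNAs of the RefSeq table, and the same held for its first 6 letters, AGCUGC. No listed miRNA with a sequence in that table (348 of the 405 with a public name) therefore carries the same seed.

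The 3p product accounted for nearly all reads of the hairpin. miR-22-3p had 809, 668 and 2066 reads in Chow-EV replicates 1, 2 and 3, and 1451, 1299 and 3377 in HFHC-EV replicates 1, 2 and 3. miR-22-5p had 1 read in Chow-EV replicate 3 and 0 in the other 5 libraries. Its share of the hairpin's reads was 0.0103% over all libraries (1 of 9671 reads, exact Clopper-Pearson 95% interval 0.000262 to 0.0576%). Taking 3 reads as the limit, 0 reads allowed a share of up to 0.449% in Chow-EV replicate 2, which had the fewest reads of the hairpin. In HFHC-EV replicate 3, which had the most, 0 reads allowed a share of up to 0.0888%. Such intervals and limits cover counting error only, since reads that PCR copied from 1 molecule were not told apart. The share of 5p differed between the diets by −0.0161 percentage points (HFHC-EV 0%, Chow-EV mean from 1 library with 0.0484% and the others at 0%; 2-sided exact permutation p = 1.0), and a change of arm use was not detectable at this depth.

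Reads of other abundant hairpins were also uneven between the arms. Of the 21 hairpins with both products listed and at least 1000 reads in all, 15 gave more 5p and 6 more 3p reads, miR-22 among the latter. Their less frequent product took a median of 0.508% of reads, with a range from 0% to 15.6%. It took a lower share than in miR-22 in 3 of them, miR-10a, miR-182 and miR-98, where it had 0 reads. At the other end stood let-7d, a let-7 hairpin with 1663 of its 10676 reads from the 3p product. miR-222, another 3p hairpin, had a single 5p read beside 1539 3p reads.

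miR-22-3p was among the most abundant miRNAs in both kinds of EV. It stood at 41.4, 33.2 and 107 RPM in Chow-EV replicates 1, 2 and 3, and at 75.7, 67.7 and 177 RPM in HFHC-EV replicates 1, 2 and 3. The third library was the highest of each diet by a wide margin, and Chow-EV replicate 3 lay above HFHC-EV replicates 1 and 2, so the diets overlapped. Among the 474 listed miRNAs it ranked 10th, 13th and 6th in Chow-EV and 11th, 9th and 5th in HFHC-EV, in the same order of libraries, and sixth by its mean of 83.6 RPM.

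**Figure D1:**
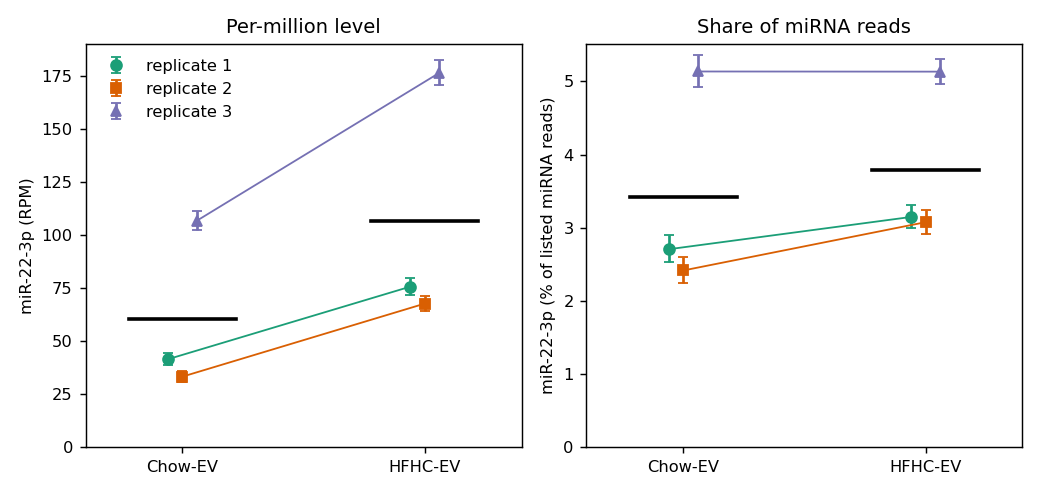
Level of miR-22-3p in each library, in RPM on the left and as a percentage of the listed miRNA reads on the right. Points are libraries with 95% counting intervals, lines join libraries with the same replicate number and black bars are diet means (n = 3). In RPM all 3 lines rise from Chow-EV to HFHC-EV; as a share the line of replicate 3 is flat, at 5.14% and 5.13%.

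The comparison that the design sets up asks whether the HFHC diet changed the miRNA cargo of hepatocyte EVs. miR-22-3p averaged 60.5 ± 40.4 RPM in Chow-EV and 106.7 ± 60.7 RPM in HFHC-EV (mean ± SD, n = 3 each), a 1.76-fold difference of means. Within same-numbered libraries HFHC-EV was higher in all 3 pairs. The ratio was 1.83 in pair 1 (95% counting interval 1.68 to 1.99), 2.04 in pair 2 (1.86 to 2.24) and 1.65 in pair 3 (1.56 to 1.75). The spread between pairs was thus small beside the spread between libraries of a diet.

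Without regard to the pairs the difference did not pass the test. In limma-trend on log2(RPM + 1), fitted to the 104 miRNAs that averaged 1 RPM or more, miR-22-3p had a log2 fold change of 0.86 (SE 0.59, 95% interval −0.64 to 2.36, Benjamini-Hochberg adjusted p = 0.341). In that fit 24.0% of the tested miRNAs were called higher and 4.81% lower, at an adjusted p under 0.05. The fold change of miR-22-3p was exceeded by that of 31 of the 104 miRNAs. Since deviations of same-numbered libraries from their diet means went together over the tested miRNAs, the fit with the replicate number as a block belongs beside this one. The block left the fold change at 0.86 and brought the SE to 0.061 (limma adjusted p = 4.95e-31), where 66.3% of miRNAs were called higher. That p rests on a variance pooled over all tested miRNAs. With each miRNA's own variance over the 3 pairs the interval was 0.50 to 1.22 (limma adjusted p = 0.0288, 36.5% of miRNAs called higher). The mean log2 difference over pairs was 0.86 ± 0.14 (SD, n = 3 pairs; 2-sided exact sign-flip permutation p = 0.25, the smallest that 3 pairs can give). A single pair weighed on the unpaired call: with both libraries numbered 3 left out, the diets no longer overlapped and the log2 fold change came to 0.93 (SE 0.14, limma adjusted p = 0.0149, 42.4% of 92 miRNAs called higher). Leaving out Chow-EV replicate 2 gave 0.53, leaving out HFHC-EV replicate 3 gave 0.43 and leaving out Chow-EV replicate 3 gave 1.36 (limma adjusted p = 0.738, 0.648 and 0.105).

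Much of this difference was shared with the other miRNAs of the same libraries. The summed RPM of all listed miRNAs other than miR-22-3p averaged 1602.0 ± 330 in Chow-EV and 2576 ± 604 in HFHC-EV (n = 3 each), and the median log2 fold change over the tested miRNAs was 0.51. Relative to that shift, miR-22-3p was higher by 0.35 on the log2 scale, a value that hung on single libraries and on the pseudocount and filter. It was 0.0030 without HFHC-EV replicate 3, 0.16 without Chow-EV replicate 1, 0.17 without Chow-EV replicate 2 and 0.55 without Chow-EV replicate 3. With pseudocounts of 0.1 and 10 it was 0.19 and 0.54, and without the filter 0.82. Most of that movement lay in the median, which was 0.69, 0.21 and 0.042 in these fits. The log2 fold change of miR-22-3p itself was 0.87, 0.75 and 0.86. After scaling libraries to each other with TMM, which brought the median to −0.0042, the log2 fold change of miR-22-3p was 0.13 (SE 0.43, 95% interval −0.94 to 1.19, limma adjusted p = 0.999; 3.85% of miRNAs called higher). When the block was added to TMM scaling it was 0.13 with an interval of −0.0035 to 0.26 (limma adjusted p = 0.0996, 26.9% called higher), and edgeR with the block on recovered reads gave 0.22 (adjusted p = 0.0811, 24.0% called higher).

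**Figure D2:**
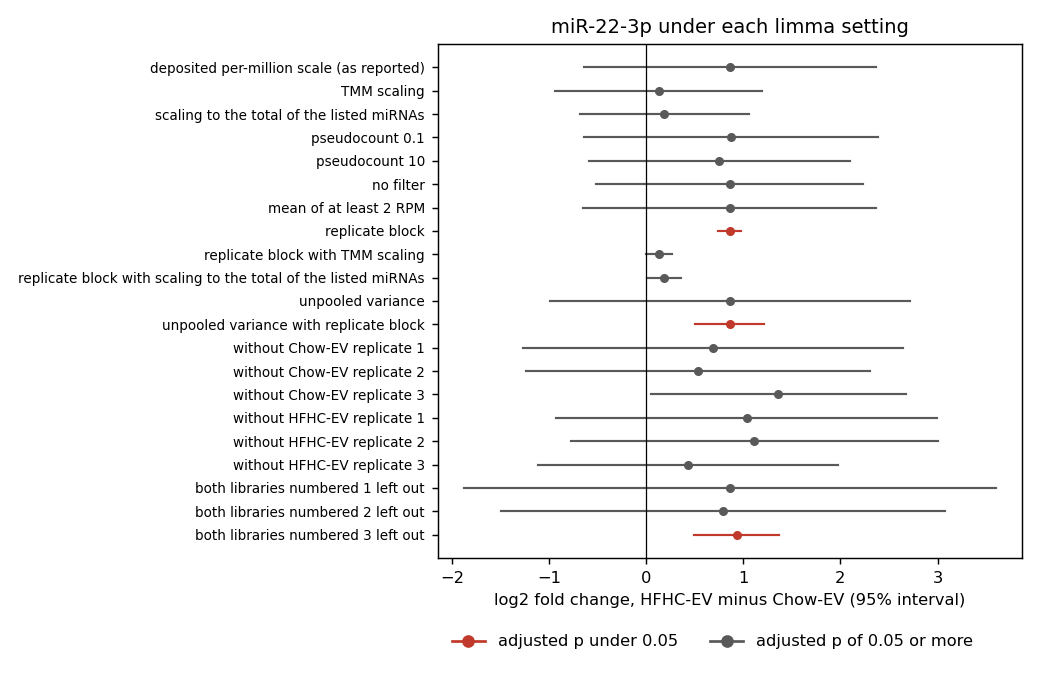
Log2 fold change of miR-22-3p (HFHC-EV minus Chow-EV) with its 95% interval in each limma fit. Red marks an adjusted p under 0.05. The fold change is above 0 in all of these fits, is 0.86 as reported, and lies at 0.13 to 0.19 in the 4 fits that scale libraries to each other.

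As a share of the listed miRNA reads, miR-22-3p was close between the diets. It took 2.70% in Chow-EV replicate 1 (exact Clopper-Pearson 95% interval 2.52 to 2.89), 2.41% in replicate 2 (2.24 to 2.60) and 5.14% in replicate 3 (4.92 to 5.36). In HFHC-EV it took 3.15% in replicate 1 (2.99 to 3.31), 3.07% in replicate 2 (2.91 to 3.24) and 5.13% in replicate 3 (4.97 to 5.31). Both libraries numbered 3 lay above the other 4, and the diets overlapped. The means were 3.42 ± 1.50% and 3.78 ± 1.17% (n = 3 each), a difference of 0.367 percentage points (2-sided exact permutation p = 0.6). The sign of that difference turned without Chow-EV replicate 2 (−0.135 points) or HFHC-EV replicate 3 (−0.308 points). Pair by pair, the share in HFHC-EV over that in Chow-EV was 1.16 (95% counting interval 1.07 to 1.27), 1.27 (1.16 to 1.40) and 1.00 (0.946 to 1.06). The first and second pairs therefore differed beyond counting error and the third did not. The let-7 family, the most abundant family of these EVs, was then left out of the total. Of the remaining reads miR-22-3p took 6.29 ± 2.10% in Chow-EV and 6.78 ± 1.35% in HFHC-EV (2-sided exact permutation p = 0.6).

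Set against all tested miRNAs pair by pair, miR-22-3p lay in the upper part without standing at the top. Its log2(RPM + 1) difference was 0.85 in pair 1, where the median of the 104 miRNAs was 0.48 and 22 miRNAs exceeded it. In pair 2 it was 1.01 beside a median of 0.60, with 28 miRNAs above it. In pair 3 it was 0.72 beside a median of 0.63, with 41 above it. There the RPM ratio of miR-22-3p, 1.65, was level with that of the summed RPM of listed miRNAs. The added 1 RPM shrinks the differences of low miRNAs, and 34 of the 104 averaged 10 RPM or more. The place of miR-22-3p among them thus depends on the scale. HFHC-EV was higher in all 3 pairs for 70.2% of the tested miRNAs.

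In miR-22-3p the library numbered 3 stood further from the others of its diet than same-numbered libraries of the diets stood from each other. In Chow-EV, replicate 3 held 2.58 times the RPM of replicate 1 (95% counting interval 2.38 to 2.80) and 3.22 times that of replicate 2 (2.95 to 3.52). In HFHC-EV the ratios were 2.33 (2.19 to 2.48) and 2.61 (2.45 to 2.78). Replicates 1 and 2 were nearer to each other, with replicate 2 at 0.802 times replicate 1 in Chow-EV (0.722 to 0.889) and at 0.894 times in HFHC-EV (0.829 to 0.964). All of these differences exceeded counting error. The summed RPM of listed miRNAs was also highest in the libraries numbered 3, but by less: 1.36 and 1.51 times replicates 1 and 2 in Chow-EV, and 1.43 and 1.56 times in HFHC-EV.

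The pooled SD of miR-22-3p within diets was 0.82 on the log2(RPM + 1) scale, against a median of 0.35 over the tested miRNAs, and 27 of the 104 had a larger one. Among the 34 miRNAs that averaged 10 RPM or more, 6 had a larger one. As a log2 share the SD was 0.51 against a median of 0.45, and 47 of 104 were larger. The mean of the libraries numbered 3 lay above that of the other 4 by 1.40 in log2(RPM + 1), where the median miRNA differed by 0.25 and 19 miRNAs differed by more. Such a profile, with both libraries numbered 3 above all others, was found for 33 of the 104 tested miRNAs (31.7%) in RPM and for 28 (26.9%) as a share. The labels do not say what a replicate number stands for.

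The miRNAs next to miR-22-3p in mean abundance did not all vary in this way. let-7b-5p, a member of the family linked to differentiation, stood just above it with miR-24-3p, the partner of miR-23 and miR-27 in their clusters. Just below stood miR-99b-5p, of the family that targets mTOR, and let-7d-5p. let-7b-5p was at 96.1, 100.2 and 116 RPM in Chow-EV replicates 1, 2 and 3 and at 147, 151 and 180 in HFHC-EV. Its diets did not overlap and it rose in RPM (log2 fold change 0.61, SE 0.12, limma adjusted p = 0.0168), as did let-7d-5p (0.54, SE 0.12, limma adjusted p = 0.0235). miR-99b-5p was at 37.2, 44.3 and 67.8 RPM in Chow-EV and 89.7, 93.4 and 146 in HFHC-EV, again without overlap, and rose with a log2 fold change of 1.14 (SE 0.30, limma adjusted p = 0.0437). miR-24-3p was at 81.0, 59.0 and 113 RPM in Chow-EV and 81.3, 58.5 and 134 in HFHC-EV. Here the libraries of pairs 1 and 2 were nearly level (log2 fold change 0.078, SE 0.39, limma adjusted p = 0.921). On the per-million scale, miR-22-3p thus had a larger fold change than either let-7 member, with a far larger SE. The summed RPM of listed miRNAs rose 1.57, 1.60 and 1.65 times in pairs 1, 2 and 3. Ratios were lower in every pair for let-7b-5p (1.53, 1.50 and 1.55), let-7d-5p (1.49, 1.43 and 1.47) and miR-24-3p (1.00, 0.990 and 1.19). As a share of the listed miRNA reads these therefore fell, whereas the ratios of miR-99b-5p were higher (2.41, 2.11 and 2.16).

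The 5 tested miRNAs with the profile most like that of miR-22-3p were found by the mean absolute difference of log2(RPM + 1) over the 6 libraries, each profile centred on its own mean. They were miR-15a-5p, known in human cells as a repressor of BCL2 (difference 0.0998), miR-181b-5p, known from endothelium and lymphocytes (0.120), miR-23a-3p, known in human cells as a repressor of glutaminase (0.134), miR-328-3p (0.138) and miR-93-5p, of the miR-106b-25 cluster (0.150). The median difference over the other 103 tested miRNAs was 0.600. miR-23a-3p, the most abundant of them, stood at 18.2, 12.8 and 40.9 RPM in Chow-EV replicates 1, 2 and 3 and at 40.0, 33.2 and 81.7 in HFHC-EV. It shared with miR-22-3p the high libraries numbered 3 and the rise within every pair, by 2.19, 2.60 and 2.00 times. miR-15a-5p, at 0.256, 0.050 and 2.43 RPM in Chow-EV and 0.887, 1.15 and 4.76 in HFHC-EV, was likewise highest in replicate 3 of each diet, at a far lower level. In HFHC-EV, however, its replicate 2 lay above replicate 1. Its ratios within pairs were 3.46, 22.9 and 1.96, and the added 1 RPM shrinks changes at such levels. By log2 share its difference from miR-22-3p was 1.01 and that of miR-328-3p 0.564, against 0.147 for miR-23a-3p. None of the 5 passed the test between diets in RPM (limma adjusted p from 0.179 to 0.423), nor did miR-22-3p. They were chosen for likeness to its profile, spread within diets included, so that outcome is no separate result. That profile also includes the rise within pairs, so no test with the block is given for them.

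**Figure D3:**
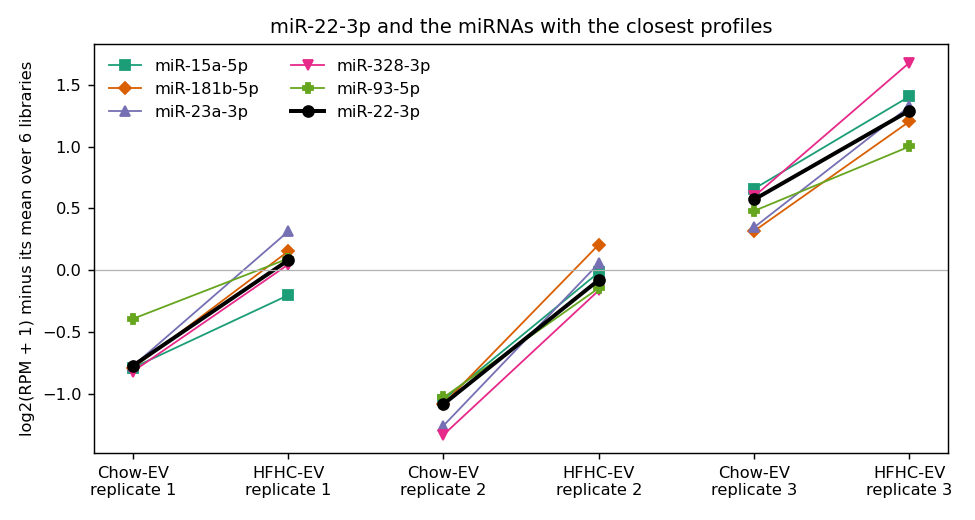
Centred log2(RPM + 1) of miR-22-3p (black) and of the 5 miRNAs with the closest profiles in the 6 libraries; lines join libraries with the same replicate number. All 6 miRNAs are lowest in Chow-EV replicate 2 and highest in HFHC-EV replicate 3.

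The mature sequences of 4 of them, miR-328-3p aside, are given from RefSeq (GRCm38.p6) with seeds in capitals, to set their seeds and loci beside the likeness in profile.
miR-15a-5p: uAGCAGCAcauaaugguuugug
miR-181b-5p: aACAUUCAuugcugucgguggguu
miR-23a-3p: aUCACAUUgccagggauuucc
miR-93-5p: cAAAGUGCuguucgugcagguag
These seeds differ from that of miR-22-3p and from each other. The hairpins lie on chromosome 14 for miR-15a-5p, on 1 and 2 for miR-181b-5p, on 8 for miR-23a-3p and on 5 for miR-93-5p, whereas Mir22 is on 11. The choice of measure mattered for the names. By Pearson correlation of log2(RPM + 1), 2 of the 5 remained, miR-15a-5p and miR-328-3p, beside miR-21a-5p, miR-16-5p and miR-23b-3p. By the share of miRNA reads 3 remained, miR-23a-3p, miR-93-5p and miR-181b-5p.

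miR-22 was considered here as a miRNA of lipid and energy metabolism, so 33 other miRNAs with roles in that field were described beside it. Of these, 28 were listed, all with at least 1 read, and 16 passed the filter on low values. In RPM 5 of the 16 rose and 0 fell, 31.2% against 24.0% of all tested miRNAs, and their median log2 fold change was 0.95 against 0.51 (0.32 against −0.0042 after TMM scaling). Those that rose included miR-183-5p, miR-26b-5p, miR-192-5p, a hepatocyte-enriched miRNA, and miR-34a-5p, a p53-induced repressor of Sirt1, whose log2 fold changes came to 1.18, 1.51, 1.25 and 0.94 (limma, adjusted p from 0.0036 to 0.0063). They were named because the fit without the block called them, and such a call favours miRNAs that differ little between libraries of a diet. Their smaller spread beside miR-22-3p is therefore no separate result. miR-192-5p, for example, was at 5.79, 4.32 and 4.14 RPM in Chow-EV and 12.4, 12.4 and 13.0 in HFHC-EV.

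In 4 of the 16, chosen here after their values were seen, both libraries numbered 3 lay above the other 4, as they did for miR-22-3p and for 31.7% of tested miRNAs. They were miR-21a-5p, an abundant miRNA of growth and fibrosis, miR-27a-3p and miR-27b-3p, which repress adipogenic and lipid genes, and miR-29a-3p, a repressor of collagens. miR-21a-5p stood at 11.1, 9.89 and 45.5 RPM in Chow-EV replicates 1, 2 and 3 and at 27.0, 28.2 and 85.8 in HFHC-EV. Its step to the third library was steeper than that of miR-22-3p. miR-27a-3p was steeper again, at 5.63, 1.84 and 54.9 RPM in Chow-EV and 8.87, 6.77 and 80.4 in HFHC-EV. None of the 4 passed the test in RPM without the block (limma adjusted p from 0.312 to 0.766). With the block all 4 were called higher (limma adjusted p from 7.1e-22 to 2.3e-05), and the list came to 11 higher and 1 lower of 16. Of all 104 tested miRNAs 66.3% were called higher and 8 miRNAs lower, so the list stood near that background. Here too the p-values rest on a variance pooled over all tested miRNAs. The contrast between the fits with and without the block was largely set by choosing the 4 for high libraries numbered 3. Such a spread within diets enters the error of the fit without the block, and the block removes it. Results with each miRNA's own variance over the pairs are not given for these 4. miR-33-5p, the sterol miRNA made from an intron of Srebf2, was under the filter. It was listed at 0, 0 and 1.09 RPM in Chow-EV and at 0.678, 1.41 and 2.83 in HFHC-EV.

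Because miR-22 is expressed in many tissues, markers of hepatocytes and of other cells were read beside it. Markers of the labelled cell type took a small part of the miRNA reads. Of 6 hepatocyte markers 5 were listed, and their sum was 5.33 to 17.0 RPM in Chow-EV and 13.5 to 27.3 in HFHC-EV, or 0.256% to 1.13% of miRNA reads. How far markers in EVs follow the cells that shed them was not tested. miR-122-5p, the defining miRNA of hepatocytes, stood at 10.5, 0.745 and 1.09 RPM in Chow-EV replicates 1, 2 and 3 and at 14.0, 0.938 and 1.05 in HFHC-EV. It was thus highest in the libraries numbered 1, while miR-22-3p was highest in those numbered 3. The other tested marker, miR-192-5p, whose values are given with the metabolic list, was nearly level within each diet and rose in HFHC-EV (log2 fold change 1.25, SE 0.15, limma adjusted p = 0.0038). miR-22-3p exceeded it in every library.

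Summed markers of blood and vessel cells also peaked in the libraries numbered 1. The erythroid list (4 of 5 listed, miR-451a and miR-486 foremost, with equal values deposited for miR-486a-5p and miR-486b-5p) summed to 113, 4.72 and 3.62 RPM in Chow-EV and to 148, 13.1 and 12.8 in HFHC-EV. The leukocyte and Kupffer cell list (5 of 6 listed) summed to 7.06 to 22.5 RPM in Chow-EV and 7.35 to 24.9 in HFHC-EV, and the endothelial list (2 of 2) to 0.497 to 5.94 and 2.19 to 9.49. A leukocyte member that went the other way was miR-155-5p, highest in the library numbered 3 of each diet (1.89, 1.24 and 2.64 RPM in Chow-EV replicates 1, 2 and 3, and 0.574, 0.677 and 1.31 in HFHC-EV). Stellate, fibroblast and muscle markers (4 of 5 listed) stood at 0.103 to 1.84 and 1.77 to 3.86 RPM. Striated muscle markers, of a tissue rich in miR-22, were near 0, with 4 of 5 listed and sums of 0 to 0.921 and 0.261 to 1.25. For the sums of these lists the highest library of each diet was the one numbered 1. None of the listed markers was at 0 in all 6 libraries. The biliary and other epithelial list (4 of 6 listed) was nearly all miR-31-5p, an epithelial miRNA. Its sum was 35.5, 38.5 and 57.7 RPM in Chow-EV replicates 1, 2 and 3 and 82.3, 79.7 and 112 in HFHC-EV, with the third library the highest of each diet, as for miR-22-3p. The part of these cells in the level of miR-22-3p was not tested.

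**Figure D4:**
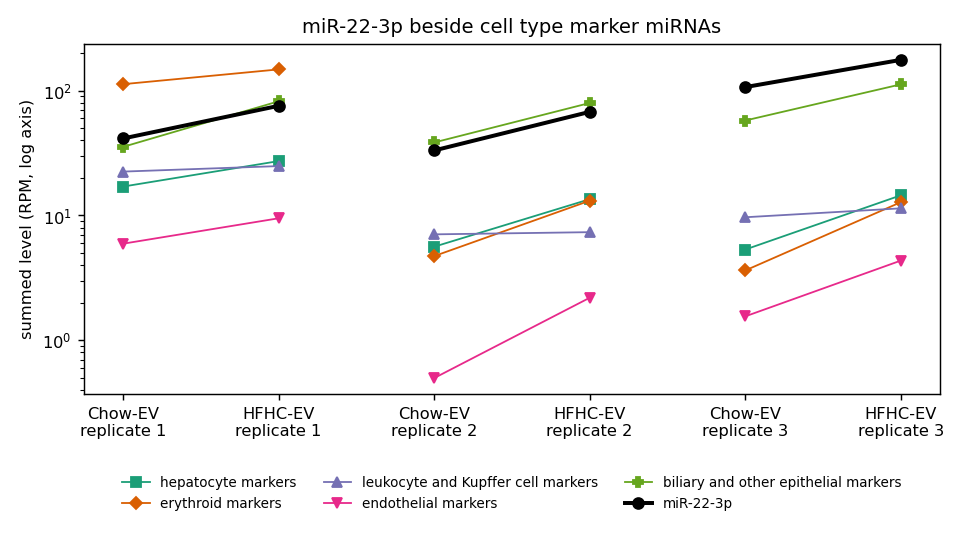
Level of miR-22-3p (black) and summed levels of 5 lists of cell type marker miRNAs in the 6 libraries, in RPM on a log axis; lines join libraries with the same replicate number. The sums of the hepatocyte, erythroid, leukocyte and endothelial lists are highest in the libraries numbered 1, miR-22-3p and the epithelial list in those numbered 3.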

How the data were processed

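Small RNA of 18 to 30 nt was cut from a gel, ligated to adapters and amplified by PCR, per the labels' protocols; the submitters' processing notes name Bowtie2 and GRCm38.p6. The authors deposited RPM values, in 1 table of 474 miRNAs per library; the miRNA annotation, trimming, denominator and treatment of multiply mapping reads are stated in none of those sources. Every RPM value was a whole multiple of 1 step per library (100% within a tolerance of 0.1 reads), which allowed read numbers to be recovered. The denominators were 19114800 to 20122500 reads, 1 read being about 0.05 RPM.

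Diets were compared with limma-trend (version 3.58.1, R 4.3.3) on log2(RPM + 1), a scale that understates changes of low miRNAs, over the 104 miRNAs that averaged 1 RPM or more, without covariates and with Benjamini-Hochberg adjustment at 0.05. edgeR 4.0.16 and DESeq2 1.42.0 on recovered reads were alternatives. Limma as reported, with TMM and with the block, edgeR with and without the block, and DESeq2 were run on simulated data. The simulated diets had no shift common to all miRNAs, and the other settings were not simulated. Single values were compared by exact permutation (Python 3.11.15), whose smallest p for 3 against 3 libraries is 0.1; intervals used scipy 1.17.1. No fold change is given for miR-22-5p, which had 1 read.

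No label says that replicate numbers mark shared mice or days. Over the 104 miRNAs, same-numbered libraries deviated together from their diet means (Pearson r = 0.945, 0.894 and 0.946), which was taken to pair the samples. Other pairs of libraries gave −0.819 to 0.0265. Deviations within a diet sum to 0, so high same-numbered values push the others down, and that range is no separate evidence. Named miRNAs were the 2 members, the 5 with the closest profile, the 2 above and 2 below in mean RPM, and up to 4 called members per list, otherwise its 2 most abundant. Other miRNAs named, among them miR-33-5p, miR-122-5p, miR-155-5p, miR-29a-3p, miR-27b-3p and the hairpins of the arm comparison, were chosen after their values were seen. miR-22, the lists and the tests were chosen with earlier results of these data known. Of the listed miRNAs, 69 carry provisional names and are not named.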

Additional observations from a re-analysis of the deposited data

How the results depend on the processing

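The log2 fold change of miR-22-3p was above 0 in all 23 alternatives, from 0.13 to 1.36, and past the threshold in 3: 0.86 with the replicate block, 0.86 with the block and unpooled variance, and 0.93 with both libraries numbered 3 left out (limma adjusted p from 4.95e-31 to 0.999 over all alternatives). Leaving out single libraries gave 0.43 to 1.36. The block changed no call of miR-22-3p after scaling. The unpooled variance and the block with total scaling were chosen after seeing the data.

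Calls of higher miRNAs (25 as reported) depended on the setting: 4 with TMM, 1 with total scaling, 60 of 422 without a filter, 1 in edgeR, 7 in DESeq2, 69 with the replicate block, 38 with the block and unpooled variance, 39 without both libraries numbered 3, and 13 to 33 when single libraries were left out. Calls of lower miRNAs (5 as reported) came to 22 without a filter, 3 at a mean of at least 2 RPM, 12 in DESeq2, 8 with the block, 26 with the block and TMM, 23 with the block and total scaling, 20 with the block in edgeR, and 4 in each fit without a single library. With the pair numbered 1 removed, limma made 0 calls in either direction (unadjusted p under 0.05: 20 up, 6 down), and with the pair numbered 2 removed also 0 (unadjusted: 18 up, 4 down). No other tool was run there. The cause of these changes was not tested.

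Without single libraries, the difference in the share of miR-22-3p ranged from −0.308 to 1.23 points, reversing without Chow-EV replicate 2 (−0.135) and HFHC-EV replicate 3 (−0.308), and that in the 5p share from −0.0242 to 0 points. Of the 5 closest miRNAs, 2 remained by Pearson correlation and 3 by share. The planned fits of miR-22-5p are not given, since 1 read allows no fold change. With 668 to 3377 reads of miR-22-3p per library, depth limits its values less than the spread between libraries does.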
